A study of Mus musculus with 73 samples.

Results

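Extraembryonic ectoderm (ExE) of mouse embryos with disrupted Dnmt1 was compared directly with ExE of embryos with disrupted G9a and Glp. ExE is the trophoblast tissue that will form much of the placenta. The comparison took 11 of the 73 samples of the series, chosen by the tissue and genotype in their labels. They were 3 libraries labelled Dnmt1 and 8 libraries labelled G9a-Glp, and 7 wild-type libraries of the same cross served only as a reference level. The comparison sets disruption of DNA methylation beside disruption of histone H3 lysine 9 methylation in the same tissue. Every embryo of these groups, wild type included, came from a BDF1 oocyte injected with CAST sperm and was taken at E6.5. The knockouts were made in zygotes by injection of Cas9 mRNA and several guide RNAs per gene, so embryos with the same label need not carry the same mutation. The Dnmt1 group had 1 male and 2 female embryos, the G9a-Glp group 3 males and 5 females, and the wild type 4 males and 3 females. Each library came from the ExE of a single embryo, from which the visceral endoderm had been stripped. Reads were counted where they overlapped a sequence difference between BDF1 and CAST, so each read could be given to the maternal (BDF1) or the paternal (CAST) allele. Only the 29557 autosomal genes of the 30546 genes in the table were used.

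DNMT1 copies DNA methylation onto the newly made strand at each cell division. G9a (gene Ehmt2) and its partner GLP (gene Ehmt1) place mono- and dimethylation on lysine 9 of histone H3. At canonical imprinted genes, a differentially methylated region set up in the egg or the sperm silences genes on the chromosome of one parent, and DNMT1 keeps it through early development. The zinc finger protein ZFP57 binds a methylated hexamer at many of these regions. At noncanonical imprinted genes, which are mainly found in extraembryonic tissue, the maternal allele is silenced after histone H3 lysine 27 trimethylation in the egg, without DNA methylation inherited from it.

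Total reads ranged from 1710457 to 2324585 in the libraries labelled Dnmt1, from 1829541 to 3637331 in the G9a-Glp libraries, and from 2685835 to 3053690 in the wild type. G9a-Glp embryo 7 stood apart, with reads on 17854 autosomal genes against 13281 to 14227 in the other G9a-Glp libraries and 12788 to 13512 in the libraries labelled Dnmt1. Of 708 olfactory receptor genes, 101 had reads in that library and 4 to 27 in the other G9a-Glp libraries. The ExE markers Elf5, Eomes and Cdx2 were read in every library, while Pou5f1, which defines the epiblast, was under 1 CPM (the reads of a gene per 1000000 reads of its library) in all of them. Pou5f1 was picked after the values were seen from a list of 19 epiblast genes, others of which were read. The summed level of that list was 1190 to 1560 CPM in the libraries labelled Dnmt1 and 941 to 1410 in G9a-Glp. In the wild type it was 916 to 1460 CPM. Dnmt3b, L1td1 and Utf1 were its most read members in the knockouts. Ehmt2 had 38.2, 45 and 52.9 CPM in the libraries labelled Dnmt1 and 1.65, 3.3 and 7.15 (lowest, median, highest) in G9a-Glp, against 4.33 to 23.3 in the wild type. Its level in the libraries labelled Dnmt1 was higher by 3.37 on the log2 scale (SE 0.29, edgeR adjusted p = 3.79e-06), and these libraries were also above every wild-type library. Ehmt1 had 43.8, 43.3 and 39.6 CPM in the libraries labelled Dnmt1 and 4.4, 12.5 and 26.1 in G9a-Glp (log2 difference 1.40, SE 0.32, edgeR adjusted p = 0.0163), with 15.3 to 40.6 in the wild type, and this call was lost whenever an embryo labelled Dnmt1 was left out. Dnmt1 itself had 47.9, 34.5 and 5.16 CPM in embryos 1, 2 and 3 labelled Dnmt1, against 35.7 to 62.2 in the wild type and 40.6 to 84.7 in G9a-Glp. In embryos 1 and 2 the Dnmt1 message was therefore at or just under the wild-type range, which does not show whether the protein was lost, and the 3 libraries are called by their label here. The fall of Dnmt1 against G9a-Glp was 1.30 on the log2 scale (SE 0.38, edgeR adjusted p = 0.046), and the call was lost in 10 of 18 other settings, among them without embryo 3.

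The windows around the start sites of 6 imprinted genes are printed because these genes are among those whose alleles separated the knockouts. The sequences are from RefSeq (mm10) and run from 250 bases before to 50 bases after a start site, read 5′ to 3′ on the strand of the gene; where a gene has several start sites, the window with the most CpG is given. Capitals mark TGCCGC or its reverse complement GCGGCA, the core of the ZFP57 motif. The first 3 genes are canonical and the last 3 are noncanonical.
Mest (chr6:30737800-30738099, plus strand): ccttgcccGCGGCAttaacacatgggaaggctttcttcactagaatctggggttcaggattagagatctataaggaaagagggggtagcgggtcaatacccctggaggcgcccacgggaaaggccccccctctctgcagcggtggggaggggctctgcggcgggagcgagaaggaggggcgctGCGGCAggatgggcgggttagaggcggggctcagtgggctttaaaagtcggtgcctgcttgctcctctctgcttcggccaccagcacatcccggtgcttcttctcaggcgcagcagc
Snrpn (chr7:60005150-60005449, minus strand): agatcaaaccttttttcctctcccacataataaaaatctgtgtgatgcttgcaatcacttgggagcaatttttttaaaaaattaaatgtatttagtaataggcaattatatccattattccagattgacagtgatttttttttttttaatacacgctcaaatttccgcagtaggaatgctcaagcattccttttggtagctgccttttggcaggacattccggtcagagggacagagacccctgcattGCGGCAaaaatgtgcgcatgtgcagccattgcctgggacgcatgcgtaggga
Peg3 (chr7:6730370-6730669, minus strand): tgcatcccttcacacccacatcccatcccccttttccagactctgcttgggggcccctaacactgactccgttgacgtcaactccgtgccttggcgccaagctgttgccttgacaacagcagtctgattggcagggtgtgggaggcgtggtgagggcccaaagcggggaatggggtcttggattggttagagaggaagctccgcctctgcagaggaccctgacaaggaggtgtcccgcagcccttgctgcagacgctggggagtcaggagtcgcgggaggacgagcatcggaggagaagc
Gab1 (chr8:80880430-80880729, minus strand): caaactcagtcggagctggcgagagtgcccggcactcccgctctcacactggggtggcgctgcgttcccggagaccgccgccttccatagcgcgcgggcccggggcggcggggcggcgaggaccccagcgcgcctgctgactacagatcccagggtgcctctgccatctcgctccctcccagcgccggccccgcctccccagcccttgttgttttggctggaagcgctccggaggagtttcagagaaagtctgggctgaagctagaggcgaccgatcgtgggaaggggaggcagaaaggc
Sfmbt2 (chr2:10372186-10372485, plus strand): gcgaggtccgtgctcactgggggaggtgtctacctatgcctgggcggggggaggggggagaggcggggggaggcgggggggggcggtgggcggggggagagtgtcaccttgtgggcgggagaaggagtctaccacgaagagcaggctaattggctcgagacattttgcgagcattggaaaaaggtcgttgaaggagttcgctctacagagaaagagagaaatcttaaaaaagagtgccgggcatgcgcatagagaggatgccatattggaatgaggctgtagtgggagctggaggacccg
Jade1 (chr3:41563501-41563800, plus strand): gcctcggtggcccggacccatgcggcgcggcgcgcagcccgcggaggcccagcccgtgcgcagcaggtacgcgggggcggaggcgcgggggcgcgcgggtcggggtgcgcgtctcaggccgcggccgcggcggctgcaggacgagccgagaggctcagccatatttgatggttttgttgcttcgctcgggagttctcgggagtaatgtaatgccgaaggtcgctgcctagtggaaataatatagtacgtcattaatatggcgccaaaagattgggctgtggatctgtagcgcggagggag
The Mest window held 17 CpG and 2 copies of the hexamer, and the Snrpn window 7 CpG and 1 copy. The Peg3 window held 13 CpG and the Gab1, Sfmbt2 and Jade1 windows 28, 16 and 38, with 0 copies of the hexamer in each. Of 32851 start-site windows in the table, 11.6% held the hexamer on either strand, and the median window had 7 CpG. These are descriptions of the letters in the windows, and binding and methylation were not analysed here.

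In canonical imprinted genes the normally silent allele was read mainly in the libraries labelled Dnmt1, and in noncanonical genes mainly in G9a-Glp. The silent-allele share is the percentage of a gene's reads that come from the parent whose allele is normally silent, taken as the median over listed genes with at least 20 reads in the library. A listed gene was used where at least 70% of its wild-type reads came from the listed parent in both directions of the cross. There were 18 canonical genes, of which 16, 14 and 17 had enough reads in embryos 1, 2 and 3 labelled Dnmt1. Their median share was 40.8%, 38.4% and 32.6% in these embryos (37.3% ± 4.2, SD, n = 3). In G9a-Glp it ran from 0.339% to 13.6% (4.99% ± 4.19, SD, n = 8), and in the wild type it was 0.574% ± 0.503 (SD, n = 7). Over 5 noncanonical genes the order was the opposite, with 15.6%, 7.32% and 14.8% in the embryos labelled Dnmt1 (12.6% ± 4.56, SD, n = 3) and 44.1% to 52.8% in G9a-Glp (47.8% ± 3.23, SD, n = 8). The wild type had 2.78% ± 2.02 (SD, n = 7) for the noncanonical class. The 2 knockouts did not overlap in either class. Single canonical genes differed, and 16 of the 18 had a higher mean share in the embryos labelled Dnmt1 than in G9a-Glp. Their means in the embryos labelled Dnmt1 ran from 3.45% for Cdkn1c (1 embryo) to 66.3% for Igf2 (2 embryos). Slc22a18 had the opposite order, with 6.78% (2 embryos) against 20.1% in G9a-Glp, and Grb10 had too few reads in the embryos labelled Dnmt1. Dnmt1 embryo 1, whose Dnmt1 message was at the wild-type level, had the highest canonical share of the 3. These medians are given as descriptions without a test, since the genes were chosen with earlier results of these data known.

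**Figure D1:**
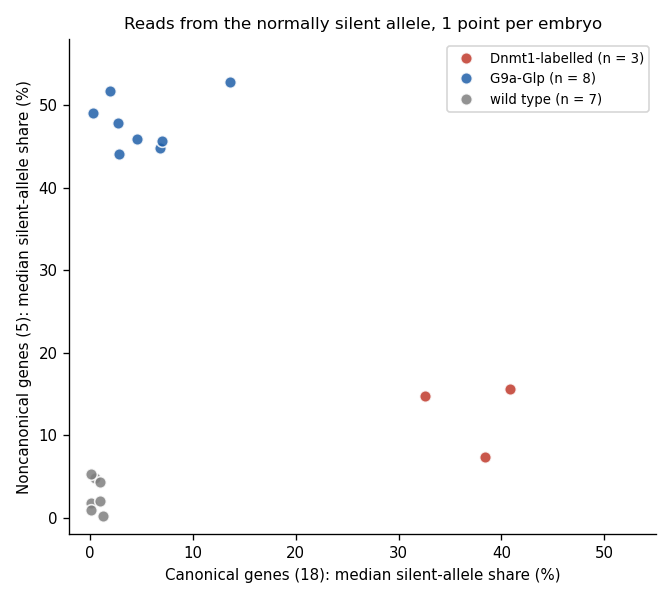
Each point is an embryo, with the median silent-allele share (%) over up to 18 canonical genes on the x axis and over 5 noncanonical genes on the y axis. The 3 embryos labelled Dnmt1 lie at 32.6% to 40.8% canonical and at most 15.6% noncanonical, the 8 G9a-Glp embryos at most at 13.6% canonical and from 44.1% to 52.8% noncanonical, and the wild-type embryos near 0 on both axes.

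Across all autosomal genes, 28 of 7761 tested (0.361%) differed in allelic ratio between the knockouts by edgeR's quasi-likelihood test with Benjamini-Hochberg adjustment. Of these, 13 (0.168%) were more maternal and 15 (0.193%) more paternal in the libraries labelled Dnmt1. The 2 groups did not overlap in 183 genes (2.36%). The listed imprinted genes made up 13 of the 28 calls. All 7 calls among 11 tested canonical genes of paternal expression were more maternal in the libraries labelled Dnmt1, 2 calls among 17 tested canonical genes of maternal expression were more paternal there, and 4 calls among 5 tested noncanonical genes were more paternal there. When embryo 7 of G9a-Glp was left out, 29 genes were called, 27 of them shared with the full set. Without embryo 1, 2 or 3 labelled Dnmt1 the counts were 25, 23 and 21, with 19, 20 and 19 shared.

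Among canonical genes of paternal expression, the 7 genes that passed the test had a higher maternal share in every library labelled Dnmt1 than in any G9a-Glp library. Snrpn-Snurf, which encodes a splicing protein and lies at the imprinting centre of the Prader-Willi region, had 28.7%, 38.9% and 20.9% maternal reads in the embryos labelled Dnmt1. In 6 of 8 G9a-Glp libraries it had 0 maternal reads, which allows a share of 1.81% to 5.66% at 53 to 166 reads per library, and the highest share there was 1.2%. The maternal-to-paternal ratio was higher by 6.55 on the log2 scale in the libraries labelled Dnmt1 (SE 0.60, edgeR adjusted p = 7.01e-08), and the groups did not overlap. Kcnq1ot1, the noncoding RNA that silences its neighbours on the paternal chromosome, was 53.3%, 63.6% and 70.3% maternal in the embryos labelled Dnmt1. In G9a-Glp its maternal share was 0%, 2.89% and 9.09% (lowest, median, highest) (log2 ratio difference 5.63, SE 0.46, edgeR adjusted p = 3.33e-10). The maternal share exceeded an even split beyond counting error in embryo 3 alone (95% Wilson interval 62.7% to 76.8%). That interval also lay above the 56.3% to 56.5% maternal share of all autosomal reads in the libraries labelled Dnmt1. The intervals of embryos 1 and 2 were 42.2% to 64.2% and 48.9% to 76.2%, and held both levels. Mest, a hydrolase-like enzyme of mesoderm and placenta, was 49.4%, 46.4% and 33.1% maternal in the embryos labelled Dnmt1 and 0%, 0.505% and 15.8% in G9a-Glp. The G9a-Glp value of 15.8% belonged to embryo 1, and the next highest was 2.94%. Both alleles of Mest were thus near balance in the first 2 embryos labelled Dnmt1 (log2 ratio difference 4.60, SE 0.55, edgeR adjusted p = 1.26e-06).

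Peg3, a zinc finger transcription factor, was the most even across embryos, with 54.8%, 56.2% and 55.4% maternal reads in those labelled Dnmt1. In G9a-Glp it had 1.82%, 12.2% and 32.4%, a wider spread than in the wild type (0% to 9.82%). The ratio differed by 2.85 on the log2 scale (SE 0.35, edgeR adjusted p = 2.59e-05). Sgce and Peg10 share an imprinted domain on chromosome 6; Sgce encodes epsilon-sarcoglycan and Peg10 a retrotransposon-derived protein needed for the placenta. Sgce was 43.1%, 60.7% and 47.6% maternal in the embryos labelled Dnmt1 and 0% to 18.2% in G9a-Glp (edgeR adjusted p = 0.00012). Peg10 was 43.2%, 36.6% and 41.4% maternal in the former and 0% to 16.3% in the latter (edgeR adjusted p = 0.000292), with 0% in every wild-type library. Impact, a regulator of translation, differed least, with 52.5%, 36.3% and 38.6% against 7.69% to 25.9%, and its wild-type share was already 6.03% to 25.9%. Its adjusted p was 0.0241 by edgeR's test, and the call was lost in 8 of 18 other settings, with adjusted p from 0.021 to 0.283. In none of these 7 genes did the libraries labelled Dnmt1 overlap the G9a-Glp libraries. Fitting all groups of this cross and tissue together, Eed and Rnf2 knockouts included, ended the calls of Peg3, Peg10 and Impact. Testing log ratios with limma ended those of Peg3, Peg10, Sgce and Impact.

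Among canonical genes of maternal expression, the paternal allele of the Dlk1-Dio3 domain was read in the libraries labelled Dnmt1. Meg3, a long noncoding RNA of that domain, was 65.4%, 66.9% and 70.9% maternal in the embryos labelled Dnmt1, against 83.3%, 99% and 100% (lowest, median, highest) in G9a-Glp and 100% in every wild-type library. Its log2 maternal-to-paternal ratio was lower by a difference of -4.02 (SE 0.55, edgeR adjusted p = 4.11e-05). Rian, a noncoding RNA that hosts small nucleolar RNAs of the same domain, was 88.3%, 78.1% and 74.3% maternal against 93.2% to 100% in G9a-Glp (log2 ratio difference -4.58, SE 0.74, edgeR adjusted p = 0.000864). Neither gene overlapped between the groups. Both calls were lost with limma, and that of Rian also with all groups in 1 fit.

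The 15 other tested genes of maternal expression did not pass the test. H19, the growth-restraining noncoding RNA next to Igf2, came closest to an even split in the embryos labelled Dnmt1, with 54.5%, 54.3% and 55.7% maternal reads at 3588 to 6230 reads per library. In G9a-Glp its share ran from 68.6% through a median of 90.5% to 99%, so the groups did not overlap, and the wild type had 95% to 100%. The test gave an adjusted p of 0.0734 (edgeR, log2 ratio difference -2.86, SE 0.67). Phlda2, a brake on placental growth in the Kcnq1ot1 domain, was 85.1%, 86% and 79.4% maternal against 78.1% to 97.1% in G9a-Glp (edgeR adjusted p = 0.819). Ascl2, a transcription factor of trophoblast progenitors in the same domain, was 97%, 87% and 88.4% maternal against 85% to 98.4% (edgeR adjusted p = 0.775). For these last 2 genes the groups overlapped, although the share of Kcnq1ot1 in the same domain did not.

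**Figure D2:**
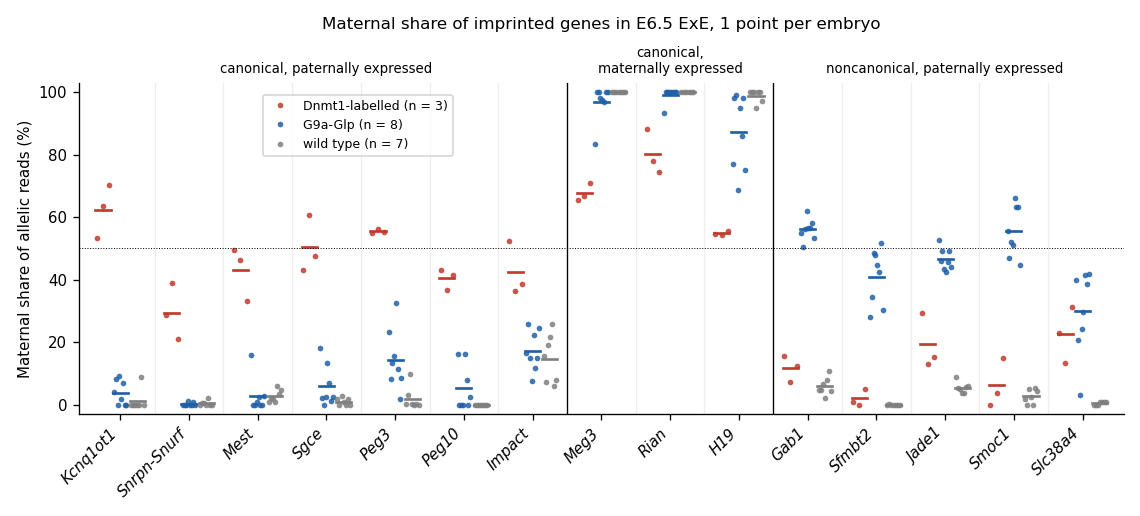
Maternal share of allelic reads (%) on the y axis for 15 listed imprinted genes, with 1 point per embryo that had at least 10 reads and a bar at the mean of each group. The dotted line marks 50%, while the maternal share over all autosomal reads was 56.3% to 57.7%. The embryos labelled Dnmt1 are nearer the dotted line than G9a-Glp embryos for the 10 canonical genes on the left, and G9a-Glp embryos are nearer it for Gab1, Sfmbt2, Jade1 and Smoc1 on the right.

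In the noncanonical class the maternal allele was read in G9a-Glp at a level close to that of the paternal allele. Gab1, an adaptor of growth factor receptor signalling in the placenta, was 50.6%, 56.4% and 62% maternal (lowest, median, highest) in G9a-Glp and 15.6%, 7.32% and 12.3% in the embryos labelled Dnmt1, with 2.04% to 10.9% in the wild type. The log2 maternal-to-paternal ratio differed by -3.23 (SE 0.18, edgeR adjusted p = 3.4e-11), the smallest adjusted p of the 28 calls. Sfmbt2, a Polycomb group protein required in trophoblast, was 28.1%, 43.5% and 51.8% maternal in G9a-Glp. In the embryos labelled Dnmt1 it was 1.02%, 0% and 5.01% maternal (log2 ratio difference -4.89, SE 0.42, edgeR adjusted p = 7.01e-08). At 1178 to 1877 reads these 3 shares rest on the deposited ratio, which is rounded. The 0% therefore sets no bound on the maternal share. Embryos 1 and 2 labelled Dnmt1 thus kept Sfmbt2 almost wholly paternal, and embryo 3 was about 5% maternal. Several microRNA genes lie within Sfmbt2, and reads could not be divided between them.

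Smoc1, a secreted matricellular protein, was 44.8%, 53.9% and 66.1% maternal in G9a-Glp and 0%, 3.85% and 14.8% in the embryos labelled Dnmt1, the last from 26 to 54 reads per library (log2 ratio difference -3.92, SE 0.57, edgeR adjusted p = 0.000216). Jade1, a subunit of a histone acetyltransferase complex, was 42.6% to 52.8% maternal in G9a-Glp and 29.4%, 13.1% and 15.3% in the embryos labelled Dnmt1 (log2 ratio difference -1.80, SE 0.25, edgeR adjusted p = 0.00015). The Jade1 share in the embryos labelled Dnmt1 was above the 3.66% to 8.75% of the wild type as well. Slc38a4, an amino acid transporter of the placenta, did not pass the test, with 23.1%, 13.5% and 31.3% in the embryos labelled Dnmt1 and 3.01%, 34.1% and 41.9% in G9a-Glp (edgeR adjusted p = 0.939). Its groups overlapped, and all libraries of both knockouts were above the 0% to 1.03% of the wild type. For the other 4 genes of the class the groups did not overlap, and none of their calls was lost in any of the 17 or 18 other settings run.

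The levels of each allele show in which one the knockouts differed. Overlap in groups of 3 and 8 does not show that an allele was unchanged. Peg3 had 234, 239 and 164 maternal CPM in the libraries labelled Dnmt1, 1.52 to 50 in G9a-Glp and 0 to 22 in the wild type. Its paternal level was 193, 186 and 132 CPM in the libraries labelled Dnmt1 and 62.7 to 261 in G9a-Glp, so the paternal values overlapped while the maternal values did not. For Mest the maternal level was 40.8, 18.7 and 25.4 CPM in the libraries labelled Dnmt1 and 0 to 2.22 in G9a-Glp, and the paternal level was 38.2 ± 15.1 (SD, n = 3) against 18.2 ± 11.2 (SD, n = 8). Most G9a-Glp libraries had a lower paternal level of Mest than every wild-type library. Kcnq1ot1 had 20.4, 16.4 and 47.8 maternal CPM against 0 to 1.85, with paternal levels of 17.8, 9.35 and 20.2 against 4.67 to 64.9.

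For Gab1, Sfmbt2 and Jade1 the paternal levels of the groups overlapped while the maternal levels did not. Gab1 had 182 to 274 maternal CPM in G9a-Glp and 35.2, 15.2 and 25.8 in the libraries labelled Dnmt1, and its paternal level was 176 ± 39.8 (SD, n = 8) and 189 ± 4.57 (SD, n = 3). Sfmbt2 had 190 to 640 maternal CPM in G9a-Glp and 6.62, 0 and 40.4 in the libraries labelled Dnmt1, the latter from rounded ratios. Its paternal level was 551 ± 110.0 (SD, n = 8) in G9a-Glp and 700.0 ± 62 (SD, n = 3) in the libraries labelled Dnmt1, against 359 to 618 in the wild type. Slc38a4 differed from these genes, since its maternal level overlapped as well, with 151, 60.2 and 229 CPM in the libraries labelled Dnmt1 and 22.4 to 511 in G9a-Glp. Jade1 had 41 to 67.9 maternal CPM in G9a-Glp and 28, 8.18 and 12.5 in the libraries labelled Dnmt1, with paternal levels of 63.9 ± 9.32 (SD, n = 8) and 63.6 ± 8.08 (SD, n = 3).

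**Figure D3:**
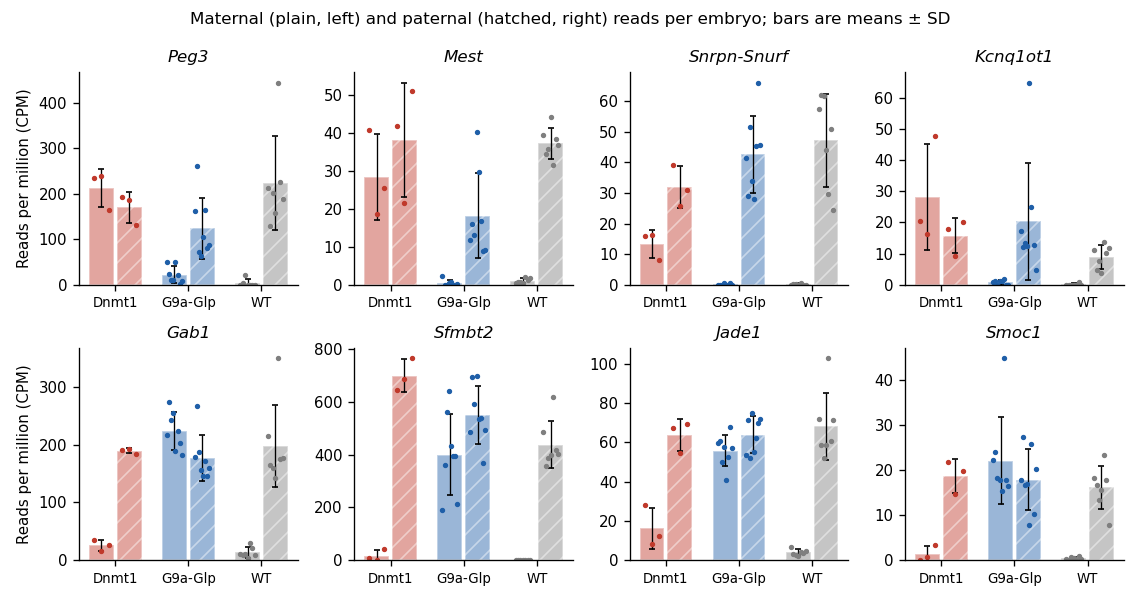
Reads in CPM from the maternal allele (plain bar, left) and the paternal allele (hatched bar, right) of 8 imprinted genes, as mean ± SD with 1 point per embryo; the Dnmt1 group holds the 3 libraries labelled so. The maternal bars of Peg3, Mest, Snrpn-Snurf and Kcnq1ot1 are high in the Dnmt1 group, and those of Gab1, Sfmbt2, Jade1 and Smoc1 are high in G9a-Glp.

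The other 15 allelic calls were on genes outside the lists, and 3 of them lay within 200 kb of a listed noncanonical gene. Gm13261, 5.28 kb from Sfmbt2, was 44.1% to 70% maternal in G9a-Glp and 4.71%, 1.89% and 11.1% in the embryos labelled Dnmt1 (edgeR adjusted p = 3.83e-06). Platr4, a noncoding RNA 62.5 kb from Jade1, was 45.5% to 58.7% maternal in G9a-Glp and 36.6%, 18.9% and 20.7% in the embryos labelled Dnmt1 (edgeR adjusted p = 0.0285), a call lost in 4 of 17 other settings. Gm32885, 101 kb from Slc38a4 and named here after its values were seen, was 39.1% to 45.3% maternal in G9a-Glp and 23.4%, 20.7% and 19% in the embryos labelled Dnmt1, at 2463 to 3013 reads per library, with 1.99% to 7% in the wild type (edgeR adjusted p = 8.59e-11; 0.0992 with all groups in 1 fit). These 3 transcripts moved in the direction of their noncanonical neighbour, although Slc38a4 itself had not passed the test. For Gm32885 the libraries labelled Dnmt1 were also above every wild-type library. Gm13247 and 1700095A21Rik overlap on chromosome 4 and hold nearly the same reads, so they count as the same signal. Gm13247 was 48.1%, 67.1% and 73.1% maternal in G9a-Glp (lowest, median, highest), and 5.26%, 6.9% and 42.2% in the embryos labelled Dnmt1. Embryo 3 labelled Dnmt1 stood far above the other 2, and the call (edgeR adjusted p = 0.00665) was lost without embryo 1, without embryo 2 and with all groups in 1 fit.

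The next 4 genes had the largest shifts to the maternal side among the calls outside the lists. Cdh15, a cadherin of muscle, was 27.7%, 34% and 42.4% maternal in these libraries, 0% to 7.23% in G9a-Glp and 0% to 4.4% in the wild type (log2 ratio difference 4.51, SE 0.44, edgeR adjusted p = 4.56e-07). It was thus read mainly from the paternal (CAST) allele in the wild type and in G9a-Glp. Wild-type libraries of the reverse cross were in the series but were not examined for the genes outside the lists. Parent and strain were therefore not told apart for them here. The shifts of the next 3 genes were smaller. Car2, carbonic anhydrase, was 84.9%, 89.2% and 88.4% maternal against 66.6% to 77.6% in G9a-Glp (edgeR adjusted p = 0.000193), and the wild type (73.6% to 85.7%) overlapped both. Asns, which makes asparagine, was 59.6%, 56.7% and 59.9% maternal against 39.1% to 49.6% (edgeR adjusted p = 0.000216). The calls of Cdh15 and Asns were lost with limma, and that of Car2 with all groups in 1 fit. Ints7, a subunit of the Integrator complex, was 63.4%, 63.7% and 65.9% maternal against 37.9% to 55.6% (edgeR adjusted p = 0.0233), and this call was lost in 6 of 18 other settings, including each in which an embryo labelled Dnmt1 was left out.

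In total reads, 785 of 9551 tested genes (8.22%) differed by edgeR's quasi-likelihood test with Benjamini-Hochberg adjustment. Of these, 339 (3.55%) were higher and 446 (4.67%) lower in the libraries labelled Dnmt1. The knockouts did not overlap in 308 of the former and 353 of the latter, and in 1406 (14.7%) of all genes tested. Differences of at least 4-fold were mostly in 1 direction, with 132 genes lower and 19 higher in the libraries labelled Dnmt1. The filter on low counts was not even between the directions. A gene silent in the libraries labelled Dnmt1 could enter through 3 of the 8 G9a-Glp libraries. A gene silent in G9a-Glp had to be read in all 3 libraries labelled Dnmt1. How far this shaped the 2 counts was not tested. For 235 of the 339 higher genes all 3 libraries labelled Dnmt1 lay above the whole wild-type range, and for 10 all 8 G9a-Glp libraries lay below it. For 136 of the 446 lower genes all G9a-Glp libraries lay above the wild-type range, and for 172 all 3 libraries labelled Dnmt1 lay below it. These counts are not alike, since 8 libraries lie outside a range together less easily than 3. Their share over all tested genes was not counted. The wild-type mean lay between the knockout means in 173 of the higher and 217 of the lower genes. It was below both means in 158 and 104, and above both in 8 and 122. The count depended on the 3 libraries labelled Dnmt1: 335, 241 and 123 genes were called without embryo 1, 2 or 3 respectively. In tissue RNA, fewer cells of a type and less RNA per cell cannot be told apart.

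Nudt8, a mitochondrial hydrolase of the Nudix family, was the clearest of the genes that were higher in the libraries labelled Dnmt1. It had 115, 121 and 133 CPM there, 7.83, 12 and 17.9 (lowest, median, highest) in G9a-Glp, and 62.7 to 119 in the wild type, so that G9a-Glp lay below both (log2 difference 3.17, SE 0.20, edgeR adjusted p = 4.25e-08). Cd59a, an inhibitor of the complement attack complex, had the same order, with 35.7, 59.6 and 59.8 CPM against 0.386, 5.43 and 13.3 in G9a-Glp and 24.2 to 83 in the wild type (log2 difference 2.88, edgeR adjusted p = 0.000178). In both genes the wild type was near the libraries labelled Dnmt1. The next genes had the opposite reference level, with the wild type near G9a-Glp. Rpl39l, a ribosomal protein paralog of the testis whose reads may be shared with its parent gene, had 40.8, 35.1 and 34.4 CPM in the libraries labelled Dnmt1, 0 to 5.02 in G9a-Glp and 0 to 3.58 in the wild type (log2 difference 4.08, SE 0.39, edgeR adjusted p = 4.52e-06). Lims2, an adaptor of integrin adhesions, had 32.6, 16.4 and 26.7 CPM against 0 to 3.36, with 12.3 in 1 wild-type library (log2 difference 4.52, edgeR adjusted p = 4.31e-06). Tas1r1, a subunit of the umami taste receptor, had 53.5, 22.2 and 36.1 CPM against 0 to 6.19 in G9a-Glp and 0.982 to 13.2 in the wild type (log2 difference 4.52, edgeR adjusted p = 7.31e-06). Plekha4, a phosphoinositide-binding protein, had 10.7, 11.7 and 7.74 CPM against 0 to 2.47 (log2 difference 3.46). Lrp8os2 had 17.3, 11.1 and 5.59 CPM against 0 to 2.22 (log2 difference 3.54); it overlaps Lrp8, and reads of the pair could not be told apart. None of these 7 genes overlapped between the knockouts, and none of their calls was lost in 18 other settings.

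The genes that were lower by most had 0 reads in all 3 libraries labelled Dnmt1. Such genes entered the test through their reads in G9a-Glp alone. A fold is given against a floor of 3 counts over the 3 libraries together, which is 0.5 CPM. Wdr20rt, a retrotransposed copy of Wdr20, had 9.1, 18.9 and 30.8 CPM (lowest, median, highest) in G9a-Glp and 0 in every library labelled Dnmt1 and every wild-type library, so it was at least 40.9-fold higher in G9a-Glp (edgeR adjusted p = 0.000805). Its reads in G9a-Glp came from both alleles, with a maternal share of 30.5% to 73.3%. 4933404K13Rik had 4.12 to 22.1 CPM in G9a-Glp (at least 22-fold, edgeR adjusted p = 0.00819) and Gm39794, which overlaps the complement gene Hc, had 4.54 to 16 (at least 19-fold, edgeR adjusted p = 0.00282), each with 0 in the wild type. Tcl1, a coactivator of AKT kinase known from the early embryo and lymphocytes, had 3.03, 6.44 and 8.2 CPM in G9a-Glp and at most 0.745 in the wild type (at least 12-fold, edgeR adjusted p = 0.00268). Lrriq4, which overlaps Lrrc34, had 4.63 to 11.6 CPM (at least 17.2-fold), 1700019A02Rik 3.33 to 12.7 and LOC108167324 1.82 to 14 (each at least 12.9-fold). Golga7b, a partner of a palmitoyltransferase, differed from the others in its reference level, with 2.96 to 19.8 CPM in G9a-Glp (at least 16.9-fold) and 0.329 to 4.84 in the wild type. The calls of Golga7b and LOC108167324 were lost whenever an embryo labelled Dnmt1 was left out, and those of 1700019A02Rik and 4933404K13Rik without embryo 3.

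**Figure D4:**
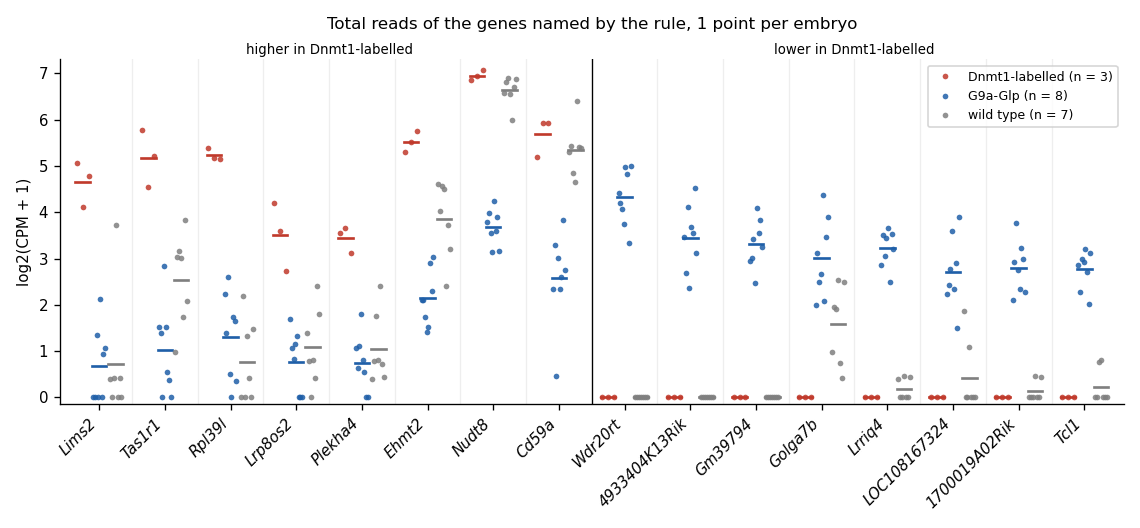
Total reads as log2(CPM + 1) on the y axis for the 16 genes with the largest differences in each direction, with 1 point per embryo and a bar at the mean of each group. The 8 genes on the right are at 0 in all 3 embryos labelled Dnmt1, while on the left Nudt8 and Cd59a are low only in G9a-Glp and Lims2, Rpl39l, Lrp8os2 and Plekha4 are high only in the embryos labelled Dnmt1, apart from 1 wild-type embryo of Lims2.

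Of all the called genes, 32 had a mean of at least 5 CPM in G9a-Glp and under 1 CPM in both other groups, a filter chosen after the values were seen. All of the 8 genes above other than Golga7b are among them. C8b, a complement protein of the liver, had 14.3, 24.8 and 35.5 CPM in G9a-Glp and 0, 1.17 and 0.43 in the embryos labelled Dnmt1 (log2 difference -5.62, SE 0.61, edgeR adjusted p = 7.31e-06). Prdm1, a repressor needed for germ cell specification and for some trophoblast lineages, had 6.37, 11.1 and 15.9 CPM in G9a-Glp and 0, 1.17 and 1.29 in the embryos labelled Dnmt1 (log2 difference -3.78, SE 0.59, edgeR adjusted p = 0.000735). The wild type had at most 0.333 CPM of C8b and at most 3.23 CPM of Prdm1, and neither gene overlapped between the knockouts. The median maternal share of the 32 genes in G9a-Glp was 57.1%, and 19 of them had between 20% and 80% maternal reads. These genes were read from both alleles in most cases, unlike the wild-type state of the imprinted genes.

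Of 24 tested genes of the germline list, 5 were lower and 0 higher in the libraries labelled Dnmt1, against 4.67% lower and 3.55% higher over all genes. The median log2 difference of the list was -0.799, beside 0.00371 over all genes tested. The summed level of the list was 1580 to 1690 CPM in the libraries labelled Dnmt1, 1960 to 3150 in G9a-Glp and 463 to 856 in the wild type, so the 3 groups did not overlap. Asz1, a protein of the germ granule in the piRNA pathway, had 9.17, 5.26 and 7.74 CPM in the embryos labelled Dnmt1 and 180.0, 225 and 308 (lowest, median, highest) in G9a-Glp, against 0.333 to 5.24 in the wild type (log2 difference -5.10, SE 0.28, edgeR adjusted p = 1.03e-08). Rpl10l, a testis copy of a ribosomal protein gene, had 138, 171 and 125 CPM against 730.0, 1020 and 1090 in G9a-Glp and 23.8 to 48.1 in the wild type (log2 difference -2.91, SE 0.16, edgeR adjusted p = 1.03e-08). For Rpl10l the 2 knockouts were thus both above the wild type, with G9a-Glp the higher. For Asz1 only G9a-Glp was clearly above it, since embryo 2 labelled Dnmt1 (5.26 CPM) was level with the highest wild-type library (5.24). Sohlh2, a transcription factor of spermatogonia and oocytes, had 146, 43.3 and 36.6 CPM against 229, 430.0 and 626 (log2 difference -2.63, SE 0.40, edgeR adjusted p = 0.000932). Nlrp4c, an oocyte gene of the NLRP family, had 8.66, 7.6 and 9.46 CPM against 22.1 to 68 (log2 difference -2.63, edgeR adjusted p = 0.000152). None of these 4 genes overlapped between the knockouts. Tex19.1, a germline gene that is also read in placenta, had 834, 789 and 892 CPM against 301 to 761 in G9a-Glp, also without overlap but in the opposite order, and did not pass the test (edgeR adjusted p = 0.236). It made up a large part of the summed level of the list in the libraries labelled Dnmt1. Rpl10l and other members of multicopy families may share reads with their paralogs.

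Of 23 tested targets of the stress transcription factor p53, 6 were lower and 0 higher in the libraries labelled Dnmt1, beside 4.67% lower and 3.55% higher over all genes tested, with a median log2 difference of -0.631. Cdkn1a (p21), which halts the cell cycle, had 13.2, 32.2 and 34 CPM in the embryos labelled Dnmt1, 37.7, 98.4 and 262 (lowest, median, highest) in G9a-Glp and 2.96 to 14 in the wild type (log2 difference -2.16, SE 0.54, edgeR adjusted p = 0.0216). The 2 knockouts did not overlap, and its call was lost whenever an embryo labelled Dnmt1 was left out. Ccng1, a cyclin of the p53 response, had 64.7, 80.7 and 64.1 CPM against 130.0, 187 and 348 in G9a-Glp and 54.6 to 104 in the wild type (log2 difference -1.71, SE 0.28, edgeR adjusted p = 0.00187). Btg2, an antiproliferative factor, had 13.2, 23.4 and 18.5 CPM against 42.5, 63.3 and 132, with 12.8 to 26.8 in the wild type (log2 difference -2.08, SE 0.36, edgeR adjusted p = 0.00241). For Ccng1 and Btg2 the libraries labelled Dnmt1 were within the wild-type range and G9a-Glp was above it. Rps27l, a ribosomal protein paralog induced by p53, had 1800, 1830 and 1670 CPM against 2730 to 4930, and here the wild type (2610 to 6260) lay with G9a-Glp (log2 difference -1.19, SE 0.21, edgeR adjusted p = 0.00263). Without embryos 1, 2 or 3 labelled Dnmt1 the count of lower genes was 3, 4 and 3.

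The total reads of imprinted genes followed their silent alleles only in part. Of 15 tested canonical genes of paternal expression, 4 were higher and 0 lower in the libraries labelled Dnmt1, where 3.55% of all genes were higher and 4.67% lower. Peg3 had 428, 424 and 296 CPM there and 74.2, 125 and 284 (lowest, median, highest) in G9a-Glp (log2 difference 1.26, SE 0.30, edgeR adjusted p = 0.0193). Peg10 had 75.4, 71.9 and 112 CPM against 21.2 to 47 (log2 difference 1.12, edgeR adjusted p = 0.00615), and both knockouts exceeded most of the wild type (13.2 to 22.7). Mest had 82.5, 40.3 and 76.6 CPM against 8.79 to 40.8 (log2 difference 1.72, edgeR adjusted p = 0.00702), and Impact 30.1, 78.9 and 49 against 16.1 to 39.9 (log2 difference 0.95, edgeR adjusted p = 0.0469). In the wild type Mest had 98 to 122 reads per library, at most 5.94% of them maternal. Most G9a-Glp libraries had a lower Mest level than every wild-type library, so the Mest difference was not only a gain in the libraries labelled Dnmt1. The groups overlapped for Mest and Impact, and each of the 4 calls was lost without at least 1 of the embryos labelled Dnmt1.

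Of 22 tested canonical genes of maternal expression, 4 were lower and 2 higher in the libraries labelled Dnmt1, against 4.67% and 3.55% of all genes. Cdkn1c (p57), a cell cycle inhibitor of the Kcnq1ot1 domain, had 7.13, 8.18 and 25 CPM against 34.3, 90.1 and 165 in G9a-Glp and 29.5 to 65 in the wild type (log2 difference -2.89, SE 0.53, edgeR adjusted p = 0.00387). Grb10, an inhibitor of insulin receptor signalling, had 0.51, 7.6 and 3.87 CPM against 15.5 to 44.8 and 19.9 to 35 in the wild type (log2 difference -2.88, SE 0.49, edgeR adjusted p = 0.00208). Cd81, a tetraspanin of the Kcnq1ot1 domain that overlaps R74862, had 30.6, 53.2 and 24.5 CPM against 64.5 to 145 (log2 difference -1.70, SE 0.30, edgeR adjusted p = 0.00325; lost without embryo 3). For Cdkn1c and Grb10 the libraries labelled Dnmt1 were below every G9a-Glp and every wild-type library. The 2 higher genes were the noncoding RNAs Rian and H19. Rian had 52.5, 66.6 and 104 CPM against 4.67 to 36.9 and 1.49 to 11 in the wild type (log2 difference 1.93, SE 0.41, edgeR adjusted p = 0.0105). H19 had 1830, 3360 and 2680 CPM against 1090 to 1970 (log2 difference 0.68, edgeR adjusted p = 0.0199), with overlap between the groups. The call of Rian was lost without embryo 3, and that of H19 without embryo 2 or 3 and with all groups in 1 fit.

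All 5 noncanonical genes had a negative log2 difference, and 4 of them passed the test. Over all 9551 genes tested, 4746 had a negative difference and 4.67% were lower past the threshold. Gab1 had 226, 208 and 209 CPM in the embryos labelled Dnmt1, 334, 394 and 541 (lowest, median, highest) in G9a-Glp and 146 to 380 in the wild type (log2 difference -1.05, SE 0.15, edgeR adjusted p = 0.000662). Jade1 had 95.3, 62.6 and 81.7 CPM against 96.2 to 138 (log2 difference -0.75, edgeR adjusted p = 0.0233). Gab1 and Jade1 did not overlap between the knockouts. Smoc1 had 21.9, 15.2 and 23.2 CPM against 23.1 to 70.9 (log2 difference -1.10, edgeR adjusted p = 0.0343) and Slc38a4 652, 446 and 732 against 660.0 to 1230 (log2 difference -0.78, edgeR adjusted p = 0.0216), both with overlap. Sfmbt2 did not pass, with 651, 689 and 807 CPM against 677 to 1340 (log2 difference -0.57, SE 0.19, edgeR adjusted p = 0.0662). Without 1 embryo labelled Dnmt1, 1 or 2 of the 5 genes passed.

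Among 24 tested genes of the DNA methylation machinery, 4 were higher and 1, Dnmt1 itself, lower in the libraries labelled Dnmt1. The shares over all genes were 3.55% and 4.67%. Dnmt3l, the cofactor of de novo methylation, had 155, 154 and 169 CPM there and 50, 63.3 and 85.8 (lowest, median, highest) in G9a-Glp, with 63.2 to 171 in the wild type (log2 difference 1.16, SE 0.16, edgeR adjusted p = 0.000594). Mbd3, a subunit of the NuRD complex, had 269, 231 and 280 CPM against 53.7 to 146 in G9a-Glp and 56 to 81.5 in the wild type (log2 difference 1.01, SE 0.20, edgeR adjusted p = 0.00629). Gadd45b, a stress gene linked to demethylation, had 65.7, 54.4 and 78.7 CPM against 18.2 to 47.7 (log2 difference 1.03, edgeR adjusted p = 0.0158). Dnmt3l, Mbd3 and Gadd45b did not overlap between the knockouts. The call of Mbd3 was lost without embryo 3, and that of Gadd45b without embryo 1 or 3. Cdca7l, a relative of a chromatin remodelling partner, had 96.3, 44.4 and 65.4 CPM against 21.8 to 49.1 with overlap (log2 difference 0.84, edgeR adjusted p = 0.0414), a call that did not hold in 8 of 18 other settings. Of 25 tested genes of H3 lysine 9 methylation, 2 passed the test, the targeted Ehmt1 and Ehmt2, which is near the 8.22% of all genes that passed in either direction.

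Of 24 tested ExE genes, 0 were higher and 1 lower in the libraries labelled Dnmt1, and 1 of 13 tested trophoblast differentiation genes was higher. With 3.55% of all genes higher and 4.67% lower, single calls in lists of this size are near the background. The ExE gene was Ly6a, with 23.4, 62 and 58.1 CPM against 75.9 to 151 in G9a-Glp (log2 difference -1.25, edgeR adjusted p = 0.0164). The trophoblast gene was Slc16a3, a lactate transporter, with 83.6, 62.6 and 132 CPM against 20.5 to 54.8 (log2 difference 1.42, edgeR adjusted p = 0.00522). Both calls were lost without embryo 3, and that of Ly6a also without embryo 1 and with all groups in 1 fit. Elf5, which maintains trophoblast stem cells, had 404, 285 and 700.0 CPM in the embryos labelled Dnmt1 and 200.0, 298 and 478 in G9a-Glp (edgeR adjusted p = 0.419). Among 12 epiblast, 7 parietal endoderm, 8 interferon, 2 mesoderm and 1 decidua gene tested, 0 passed in either direction. Of 19 visceral endoderm markers in the table, 2 could be tested, and Afp was lower in the libraries labelled Dnmt1, with 0.51, 0.585 and 1.72 CPM against 12.9, 40.2 and 112 in G9a-Glp and 0.333 to 6.79 in the wild type (log2 difference -5.64, SE 0.94, edgeR adjusted p = 0.00131). The other tested marker, Amn, had 10.7, 28.1 and 33.1 CPM against 4.8 to 24.3 in G9a-Glp, with overlap and the opposite sign (log2 difference 0.57, edgeR adjusted p = 0.383). The visceral endoderm markers Ttr and Apoa1 were at most 2.34 and 2.19 CPM in these 2 groups. The summed level of the visceral endoderm list was 16.8 to 48.2 CPM in the libraries labelled Dnmt1, 20.3 to 150.0 in G9a-Glp and 13.8 to 28.9 in the wild type, and its part in the other differences was not tested.

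**Figure D5:**
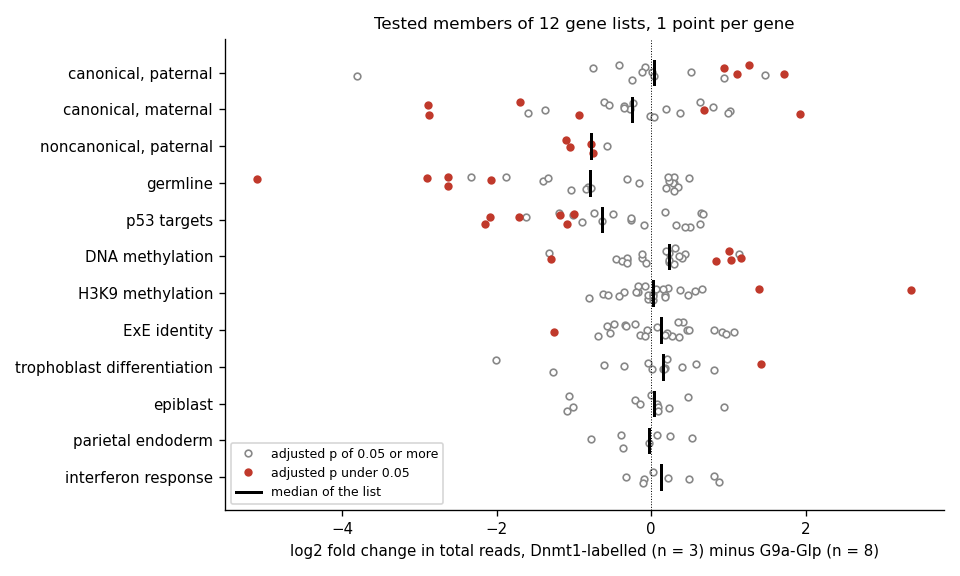
Log2 fold change in total reads (libraries labelled Dnmt1 minus G9a-Glp) on the x axis for the tested members of 12 gene lists, with 1 point per gene, filled where the adjusted p was under 0.05, and a bar at the median of each list. The filled points lie on the left for the noncanonical, germline and p53 lists and on the right for the canonical paternal and H3K9 methylation lists.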

How the data were processed

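RNA of ExE from 18 single embryos was analysed. A further 4 wild-type ExE libraries of the reverse cross served only to choose the genes of the silent-allele share. The setting with all groups in 1 fit also held the ExE libraries of the Eed and Rnf2 knockouts. Per the submitters' processing notes, reads were handled with STAR 2.5.0, HTSeq and mm10. The authors deposited total counts of reads over sequence differences, an allelic ratio (CAST share minus 0.5, rounded) and an allelic score (signed −log10 of a binomial p) per gene. Maternal and paternal counts were recovered from these columns, and 99.985% of values of at least 10 reads were matched by whole counts. Values at the limit of the score, with 5.7% of reads, used the rounded ratio. Total counts (TMM, filterByExpr) and allele counts (a term per library, at least 10 reads in 3 libraries per group) were tested with edgeR 4.0.16 in R 4.3.3, two-sided, with Benjamini-Hochberg adjustment at 0.05. Other settings used limma 3.58.1 and DESeq2 1.42.0. Separate embryos were the replicates. Intervals and floors of 3 counts cover counting error only. Genes were named by a rule: the 8 largest non-overlapping differences in each direction in total reads, listed imprinted genes past the threshold, the 4 largest unlisted allelic shifts in each direction, and up to 4 called and 3 abundant members of each list. The members and lists were chosen with earlier results of these data known. On simulated data, 88.5% of 4-fold and 42.7% of 2-fold changes in total reads were recovered over 9350 genes, and 98.9% and 48.1% of allelic share shifts of 0.4 and 0.2 over 7761 genes; 3 of 127 and 12 of 155 calls were false.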

Additional observations from a re-analysis of the deposited data

Results flagged for a closer look

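In groups of 7 or 8 embryos, 30 of 166 groups of values had an end embryo far from the others by Dixon's criterion. For independent normal values, chance alone flags about 1 in 20. Some of these groups are low counts or shares near their limits, and overlapping genes share reads, so the 30 cannot be set against that rate. No explanation of them was tested. G9a-Glp embryo 7 had reads on 17854 autosomal genes (next 14227), and it also had the highest Asz1 (308 CPM, next 240.0) and Lims2 (3.36 CPM) of its group. G9a-Glp embryo 1 stood on the side of the embryos labelled Dnmt1 for several imprinted genes: its maternal share was 15.8% for Mest (next 2.94%), 83.3% for Meg3 (next 96.9%) and 93.2% for Rian (others 100%). The same embryo had the lowest maternal share of Gm13247 (48.1%) and of the overlapping 1700095A21Rik (46.6%). G9a-Glp embryo 3 was highest for the p53 targets Cdkn1a (262 CPM, next 124) and Btg2 (132 CPM, next 78.6). G9a-Glp embryo 4 was highest for Cdx2 (15.3 CPM), Tas1r1 (6.19 CPM) and Plekha4 (2.47 CPM), and embryo 2 for Gab1 (541 CPM).

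Among wild-type embryos, embryo 6 was highest for Peg3 (445 CPM, next 227), Gab1 (380.0 CPM, next 224), Dnmt3l (171 CPM), Cd59a (83 CPM) and C8b (0.333 CPM). It also had the highest maternal share of Snrpn-Snurf (2.2%) and the lowest of Phlda2 (93%). Wild-type embryo 4 was highest for Lims2 (12.3 CPM, next 0.343), embryo 1 for LOC108167324 (2.62 CPM) and embryo 2 for Prdm1 (3.23 CPM). The highest wild-type maternal shares were 8.82% for Kcnq1ot1 in embryo 7, 9.82% for Peg3 in embryo 3, 0.199% for Sfmbt2 in embryo 2, 1.92% for Gm13261 in embryo 4 and 7% for Gm32885 in embryo 8. Embryo 8 also had the lowest share of Ascl2 (97.6%). For Sfmbt2 the shares of the other wild-type embryos came from rounded ratios, so its order is not certain.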

How the results depend on the processing

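With 3 libraries labelled Dnmt1, the number of calls in total reads rests on each of them: it ran from 123 to 996 as 1 library of either group was left out. DESeq2 called 1202 genes (401 higher, 801 lower in the libraries labelled Dnmt1) and no filter on low counts gave 1262 (502 and 760). Other size factors, sex as a term, all groups in 1 fit and an older form of edgeR's test, the last chosen after seeing the data, gave 699 to 784 calls. For the allelic ratio, all groups in 1 fit gave 18 calls (14 shared), limma 22 (13 shared) and leaving out a library 21 to 30. Embryo numbers do not pair the samples (correlations of same-numbered embryos -0.0368 to 0.235), and with embryo number as a replicate block 803 genes were called in total reads (535 shared) and 30 in the allelic ratio (19 shared, Meg3 and Rian not among them). As a mean over genes, the canonical silent-allele share was 3.06% in the wild type and 8.31% in G9a-Glp, and with a minimum of 10 reads it was 0.184% in the wild type. Of the 24 named genes called in the allelic ratio, 8 kept their call in every setting run, and of 66 called in total reads 33 did; none changed direction. Depth limited single genes: a maternal share in an embryo labelled Dnmt1 had a 95% interval up to 28.3 points wide (Platr4).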
